A study of Capra hircus with 4 samples.

Results

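The genes described here are the nuclear-encoded subunits of the mitochondrial respiratory chain in goat pancreas, followed across the cell classes of the tissue. They were taken by symbol from the deposited gene list: names beginning with NDUFA, NDUFB, NDUFC, NDUFS or NDUFV, apart from the NDUFAF assembly factors, together with SDHA, SDHB, SDHC and SDHD. This gave 43 of the 27137 genes listed. Complex I contributed 37 of them, 7 core subunits and 30 accessory subunits, and complex II contributed 4. The remaining 2 were NDUFA4, which carries a complex I name and is today assigned to complex IV (cytochrome c oxidase), and its paralogue NDUFA4L2. Subunits of complexes III and IV named UQCR or COX, and mitochondrially encoded subunits, were not analysed here. All 43 genes matched the RefSeq table of goat assembly ARS1.2 by gene ID with the same symbol.

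Complex I takes electrons from NADH, complex II takes them from succinate as part of the citrate cycle, and both pass them to coenzyme Q. Complexes III and IV carry the electrons on to oxygen, and the proton gradient that complexes I, III and IV build is used by ATP synthase. In the pancreas, acinar cells make digestive enzymes, duct cells secrete a bicarbonate-rich fluid, and beta cells couple the oxidation of glucose to the release of insulin, a step in which mitochondrial ATP is the signal.

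Single-cell RNA was sequenced with 10x Genomics 3' chemistry, version 3, from dissociated pancreas of 4 female Liuyang black goats. Of these, 2 were aged 10 days and not yet ruminating, and 2 were ruminating animals aged 6 months; the labels call them twins and name no other treatment or genotype. All cells had passed enzymatic digestion and the removal of red blood cells and dead cells. The counts lie in a single matrix of 4 libraries, numbered 1 to 4, and no label ties a library to an animal or an age. The 10 days against 6 months comparison was therefore not run, and each library is given by its number, with no test and no p-value.

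A total of 13216 cells entered, with library medians of 6174, 8935, 7960.5 and 8185 UMIs (unique molecular identifiers, counted transcripts) per cell. Clusters were named from marker genes, and the names end in "-like" because they are rebuilt here. There were 2509 acinar-like, 397 ductal-like, 3323 endocrine-like, 4912 stellate-like, 87 pericyte/smooth muscle-like, 334 endothelial-like, 115 mesothelial-like and 1160 immune-like cells. The acinar-like cells carried 14.8% to 37.1% of their UMIs in 14 digestive enzyme genes. Ductal-like cells of libraries 1 to 3 carried 0.43% to 1.62%, endocrine-like cells 0.294% to 1.14% and stellate-like cells 0.032% to 0.276%. Libraries stood apart in pairs: of 37 clusters, 14 drew at least 90% of their cells from libraries 1 and 4, and 18 from libraries 2 and 3, so one class name can cover different clusters in different libraries. A total of 18 barcode sequences were called as cells in more than 1 library.

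Together the 43 genes made up at most 1.2% of the UMIs of any class and library, and acinar-like cells had the lowest share in all 4 libraries. Acinar-like cells gave 0.179%, 0.269%, 0.415% and 0.25% of their UMIs to these genes in libraries 1 to 4. Ductal-like cells gave 0.804%, 0.756% and 1.2% in libraries 1 to 3, the highest share of any class in each; library 4 held only 11 ductal-like cells and is left out for that class. Every ductal-like value lay above every acinar-like value. Endocrine-like cells gave 0.53%, 0.584%, 0.714% and 0.514%, and stellate-like cells ranged from 0.389% to 0.724% with a median of 0.522%. Endothelial-like cells had a median of 0.625% (0.484% to 0.728%) and immune-like cells 0.61% (0.522% to 0.815%). Pericyte/smooth muscle-like cells gave 0.614% and 0.9% in libraries 2 and 3, and mesothelial-like cells 0.917% and 0.568% in libraries 3 and 4. Exact binomial intervals (Clopper-Pearson, 95%) cover counting error only and were narrow beside the spread over libraries, as in the 0.78% to 0.829% around the ductal-like value of library 1. The differences between neighbouring classes in the middle of the order were smaller than that spread.

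Library 3 had the highest share in all 8 classes, so the order of the classes was read within a library. In library 4 the highest share was that of mesothelial-like cells. The same order was seen cell by cell at its lower end: the median acinar-like cell of libraries 1 to 4 had 0.163%, 0.259%, 0.398% and 0.191% of its UMIs in these genes, and the median ductal-like cell of libraries 1 to 3 had 0.818%, 0.761% and 1.18%.

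**Figure D1:**
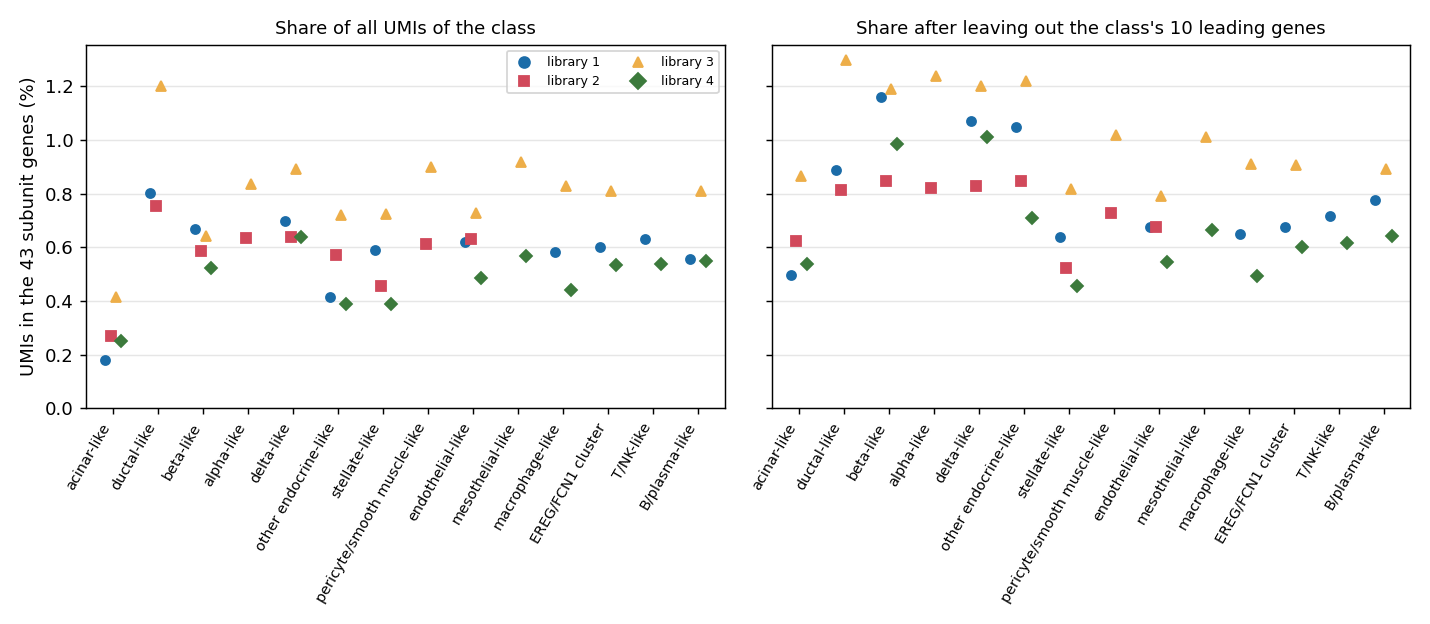
Share of UMIs in the 43 subunit genes (%, y axis) for each cell class (x axis), 1 point per library with at least 20 cells of the class, from all UMIs (left) and after leaving out the 10 leading genes of each class (right). Within each library acinar-like cells lie lowest on the left, at 0.179% to 0.415%, and endocrine-like classes move up on the right, where all endocrine-like cells together have a median of 1.01%.

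These shares depend on what else a class makes. The 10 leading genes of the acinar-like class took 52% to 63.9% of its UMIs, and those of the endocrine-like class, which include the hormones, took 29.2% to 50.8%, against 7.18% to 9.38% in ductal-like cells. With the 10 leading genes of each class left out of the total, the median share was 0.58% in acinar-like, 0.579% in stellate-like, 0.887% in ductal-like and 1.01% in endocrine-like cells. The endocrine-like values then were 1.08%, 0.824%, 1.19% and 0.95% in libraries 1 to 4, against 0.887%, 0.814% and 1.3% in the ductal-like cells of libraries 1 to 3. Which of these 2 classes was higher thus differed between libraries on that scale.

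The comparison of both exocrine classes, acinar-like against ductal-like cells, asked how the subunits differ between enzyme-secreting and duct cells of the same library. Here and below a gene was called higher or lower when the ratio of counts per 1000000 UMIs (CPM), on the log2(CPM + 1) scale, reached 1 or -1 in every library entering, with at least 20 counts on the higher side. Of 42 members measured, 32 were called lower in acinar-like cells and 0 higher, with a median log2 ratio of -1.65. Over all 5174 genes measured, 58.1% were called lower and 1.78% higher, and the median was -1.77, so the members lay at about the level of all genes. When each library's ratios were centred on the median of all genes, 0 members were called in either direction and the members' median was 0.14. The centred background was 11.2% higher and 9.88% lower. With the 10 leading genes left out of the totals, the median was -0.60 and 2 members were called lower. The median acinar-like cell had 7657, 19162 and 17242 UMIs in libraries 1 to 3 and the median ductal-like cell 6254, 7530 and 6433; the part of depth in the ratios was not tested.

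Among complex I core subunits, 4 of 7 were called lower in acinar-like cells, among them NDUFV2, NDUFS3 and NDUFS7, with median log2 ratios of -1.90, -1.64 and -1.40. NDUFS1, the large iron-sulfur subunit of the electron-input arm, measured 5.14, 6.3 and 17.3 CPM in the acinar-like cells of libraries 1 to 3 and 26.6, 38.7 and 63.5 CPM in the ductal-like cells. Every ductal-like value lay above every acinar-like one, but NDUFS1 was not called, because the 26.6 CPM of library 1 rest on 14 counts. NDUFV1, which binds NADH and the flavin cofactor, measured 25, 41.8 and 80.1 CPM against 120, 101 and 129 CPM, with log2 ratios from -2.22 to -0.69.

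Of the 30 accessory subunits, 23 were called lower. NDUFA8, an intermembrane-space subunit held by disulfide bonds, measured 13.7, 32.4 and 50.1 CPM in acinar-like cells and 146, 174 and 240 CPM in ductal-like cells, a median log2 ratio of -2.39. NDUFS4, an accessory subunit of the electron-input arm whose loss causes Leigh syndrome in humans, had a median ratio of -2.28. NDUFAB1, the mitochondrial acyl carrier protein, had -2.19, and NDUFA1 and NDUFA11, both in the membrane arm, had -2.06 and -2.04. The others named by size of ratio were NDUFA5 (-1.96), NDUFB5 (-1.88), NDUFA12 (-1.84), NDUFB8 (-1.83), NDUFB4 (-1.81), NDUFB3 (-1.79), NDUFS6 (-1.76) and NDUFC2 (-1.66), again as median log2 ratios. The smallest differences were those of NDUFA7 and NDUFS5, at -0.82 and -0.86, neither of them called.

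All 4 complex II subunits were called lower in acinar-like cells, although none was called after centring. SDHD, a membrane anchor of the complex, had the lowest ratio of all members. It measured 26.2, 44.4 and 74.5 CPM in acinar-like cells and 192, 279 and 334 CPM in ductal-like cells, a median log2 ratio of -2.62 (-2.83 to -2.15), and its centred median was -0.69. SDHA, the flavoprotein that oxidises succinate, had -1.92, SDHB, the iron-sulfur subunit, had -1.71, and SDHC, the other anchor, had -1.66. NDUFA4 was also called lower, at -2.10.

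Other energy genes were lower too, and the list shares lie on both sides of the 58.1% of all genes called lower. Called lower were 14 of 17 measured ATP synthase genes, among them ATP5B (-2.12), ATP5G3 (-2.12) and ATP5C1 (-2.00), 8 of 13 citrate cycle genes, led by OGDH (-2.61) and DLD (-2.59), and 8 of 9 glycolysis genes. Assembly factors were called lower in 5 of 11, led by SDHAF2 (-2.54), which attaches flavin to SDHA. Of the coenzyme Q and cytochrome c list 2 of 4 were lower (COQ7 at -2.17 and COQ10B at -1.81), of the mitochondrial biogenesis list 1 of 4 (YY1 at -1.85), of the mitochondrial ribosome 30 of 59 (MRPS28 first, at -2.69), of the antioxidant list 5 of 11 (SOD1 first, at -3.39) and of the hypoxia targets 4 of 6 (P4HA1 first, at -2.93). None of these lists had a gene called higher. After centring, the calls left among ATP synthase, citrate cycle and hypoxia genes were 0, whereas GAPDH (centred ratio -2.22), PKM (-1.22) and SOD1 (-1.93) were still called lower. Called higher after centring were 3 mitochondrial ribosome genes, 1 assembly factor, 1 biogenesis gene and 1 glycolysis gene. The cytosolic ribosome differed from the rest, with 3 of 78 genes lower, 1 higher (RPL22L1 at 2.39) and a median of -0.24, and with 54 called higher after centring.

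Hormone cells were set against the summed UMIs of acinar-like and ductal-like cells, in all 4 libraries. Ductal-like cells gave 526529, 1137433, 1653032 and 175576 of the 4613394, 31288003, 18734384 and 1268056 UMIs of that sum in libraries 1 to 4. The ratios therefore mostly reflect acinar-like cells and do not show how endocrine-like cells stand against ductal-like cells alone. Of 42 members measured, 11 were called higher in endocrine-like cells and 0 lower, with a median log2 ratio of 0.91. Over 11227 genes, 26.7% were called higher and 1.79% lower, with a median of 0.99, so the members' share of higher calls was close to the background. After centring, 0 members were higher and 1, NDUFA4, was lower (background 7.8% higher and 4.37% lower), and the members' median was -0.11. With the 10 leading genes left out of the totals, 5 members were called higher and the median was 0.60.

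All 11 called members were accessory subunits of complex I; 0 of 7 core subunits and 0 of 4 complex II subunits were called. The 11 were NDUFB8 (median log2 ratio 1.93), NDUFS4 (1.81), NDUFA5 (1.76), NDUFB1 (1.60), NDUFC1 (1.52), NDUFB5 (1.51), NDUFA1 (1.50), NDUFB2 (1.44), NDUFAB1 (1.39), NDUFA6 (1.31) and NDUFB4 (1.20). The NDUFB and NDUFC proteins, with NDUFA1, belong to the membrane arm that pumps protons, and NDUFS4, NDUFA5 and NDUFA6 belong to the matrix arm. The core subunits NDUFS1 and NDUFV1 had median ratios of 1.91 (0.82 to 2.54) and 0.62 (-0.41 to 0.77). SDHA and SDHB had 0.70 (-0.33 to 1.04) and 0.31 (-0.12 to 0.73), so in each at least 1 library lay on the other side of 0.

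**Figure D2:**
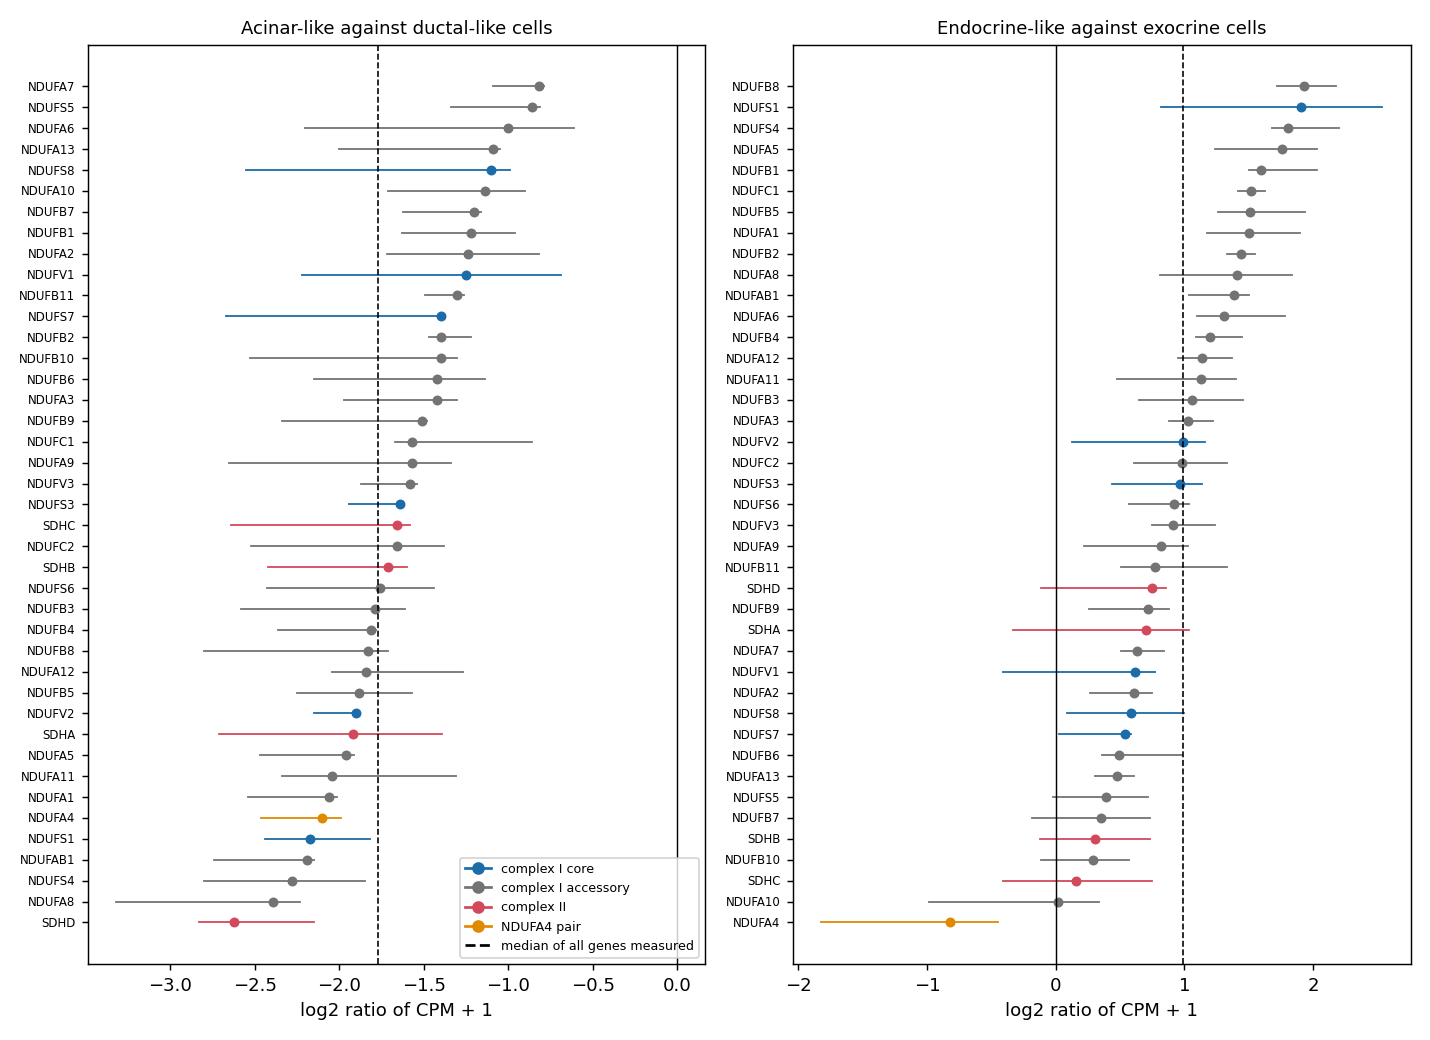
Log2 ratio of CPM + 1 (x axis) for the measured subunit genes reported singly (y axis), acinar-like against ductal-like cells in libraries 1 to 3 (left) and endocrine-like against exocrine cells in libraries 1 to 4 (right); points are medians over libraries, lines the lowest and highest library, the solid line 0 and the dashed line the median of all genes. The members spread around the medians of all genes, -1.77 and 0.99, and NDUFA4 lies lowest on the right at -0.82.

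In the same comparison 3 of 17 ATP synthase genes were called higher (ATP5E at 2.22, USMG5 at 1.51 and ATP5J at 1.48), 5 of 25 assembly factors (HIGD1A first, at 2.26), 3 of 13 coenzyme Q and cytochrome c genes (COQ10B first, at 3.14) and 2 of 18 citrate cycle genes (SUCLA2 at 1.96 and IDH3A at 1.53). Glycolysis had 6 of 15 called higher, led by ENO2, the neuronal enolase (4.66), ALDOC (3.71) and PFKM (3.25), all of which were also called after centring. The mitochondrial ribosome had 7 of 77 higher, the antioxidant list 1 of 11 (GLRX2 at 1.45) and the hypoxia targets 4 of 11 (BNIP3 first, at 2.57). The cytosolic ribosome had 2 of 79 (RPS6KL1, a kinase-like gene taken in by its symbol, at 2.64, and RPL7L1 at 1.14), and the biogenesis list 0 of 13. These shares stand beside the 26.7% of all genes called higher, and no gene of these lists was called lower. After centring, 22 cytosolic ribosome genes, 8 mitochondrial ribosome genes and 1 gene each of the assembly, citrate cycle and antioxidant lists were called lower.

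Since 10 genes took 52% to 63.9% of acinar-like UMIs, endocrine-like cells were also set against the ductal-like, stellate-like, pericyte/smooth muscle-like, endothelial-like, mesothelial-like and immune-like cells of the same library. This comparison was added after the data were seen, and it shares its endocrine-like cells with the one above. All 43 members were measured, 1 was called higher, 1 lower, and the median log2 ratio was 0.00. The background over 12652 genes was 8.61% higher and 17.9% lower, with a median of -0.35. After centring, 4 were higher (NDUFB1, NDUFB8, NDUFA6 and NDUFC1, with centred ratios of 1.54, 1.26, 1.17 and 1.16) and 1 was lower, against a background of 11.4% and 14.9%. Leaving out the 10 leading genes gave 6 higher and 0 lower.

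NDUFB1 was the member called higher, with a median log2 ratio of 1.12 (1.03 to 1.26); with a pseudocount of 10 CPM the median was 1.04 and the call was lost. It measured 159, 122, 302 and 182 CPM in the endocrine-like cells of libraries 1 to 4, against 69.3, 43.4, 123 and 48.1 CPM in stellate-like cells. In each library the endocrine-like value was the higher one. Its share of the 43 genes' UMIs, 2.09% to 4.23% in endocrine-like cells, overlapped the 0.796% to 2.51% of the other classes. NDUFB8 measured 206, 250, 276 and 176 CPM in endocrine-like cells and 134, 84.8, 135 and 72.6 CPM in stellate-like cells, and its ratio to all these other cells was 0.92, not called before centring. NDUFA6 measured 160, 202, 257 and 163 CPM against 90.5, 78.6, 135 and 67.1 CPM in stellate-like cells. Stellate-like cells gave 6562456, 7250707, 12317383 and 8301295 of the 9860616, 9904947, 15795393 and 15879828 UMIs of the other cells in libraries 1 to 4. Ratios to that sum, and levels set beside stellate-like cells only, do not show how endocrine-like cells stand against each other class.

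NDUFA4 was the member called lower, and apart from the scarce NDUFA4L2 it was the one whose share differed most between classes. It measured 109, 120, 133 and 103 CPM in the endocrine-like cells of libraries 1 to 4. In the stellate-like cells of the same libraries it measured 465, 326, 821 and 293 CPM, in endothelial-like cells 283, 355, 559 and 298, and in immune-like cells 374, 444, 579 and 296. Ductal-like cells had 543, 681 and 1570 CPM in libraries 1 to 3. Endocrine-like cells were thus below all of these in every library, and their 4 values lay between 103 and 133 CPM; they, like the other 7 classes, were highest in library 3. Pericyte/smooth muscle-like cells had 444 and 1087 CPM in libraries 2 and 3, and mesothelial-like cells 973 and 352 CPM in libraries 3 and 4. The log2 ratio of endocrine-like to all these other cells was -1.99, -1.63, -2.74 and -1.53 in libraries 1 to 4. With the 10 leading genes left out of the totals the median was -1.18 and the call was lost.

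As a share of the 43 genes' own UMIs, a measure that does not depend on the hormone or enzyme transcripts, NDUFA4 took 2.05%, 2.06%, 1.86% and 2.01% in endocrine-like cells. In each of the other 7 classes, taken whole, it took between 4.58% and 13.1%, with no overlap. Parts of the immune class went lower. NDUFA4 took 136 of 3416 and 168 of 4439 of these UMIs in the macrophage-like cells of libraries 1 and 4, and 112 of 1388 in library 3. The shares in libraries 1 and 4 were below 4.58%, yet above every endocrine-like one. Acinar-like cells, whose NDUFA4 level of 98.1, 171, 364 and 160 CPM overlapped the endocrine-like one, had shares of 5.47%, 6.34%, 8.78% and 6.4%. The low share was found in each hormone class: beta-like cells had 1.74% to 2%, alpha-like cells 1.56% and 1.81%, delta-like cells 1.45% to 1.98%, and the other endocrine-like cells 1.96% to 2.37%. Barcodes of 10 to 100 UMIs, taken as cell-free RNA, had shares of 4.71%, 4.73%, 8.2% and 4.66%, above the endocrine-like cells of every library. Against exocrine cells as a whole the log2 ratio of NDUFA4 was -0.45, -0.65, -1.82 and -0.99, which was not called, and -1.90 in the median after centring, which was. Near-identical copies of NDUFA4 that may stand in the gene list under LOC symbols were not assessed.

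**Figure D3:**
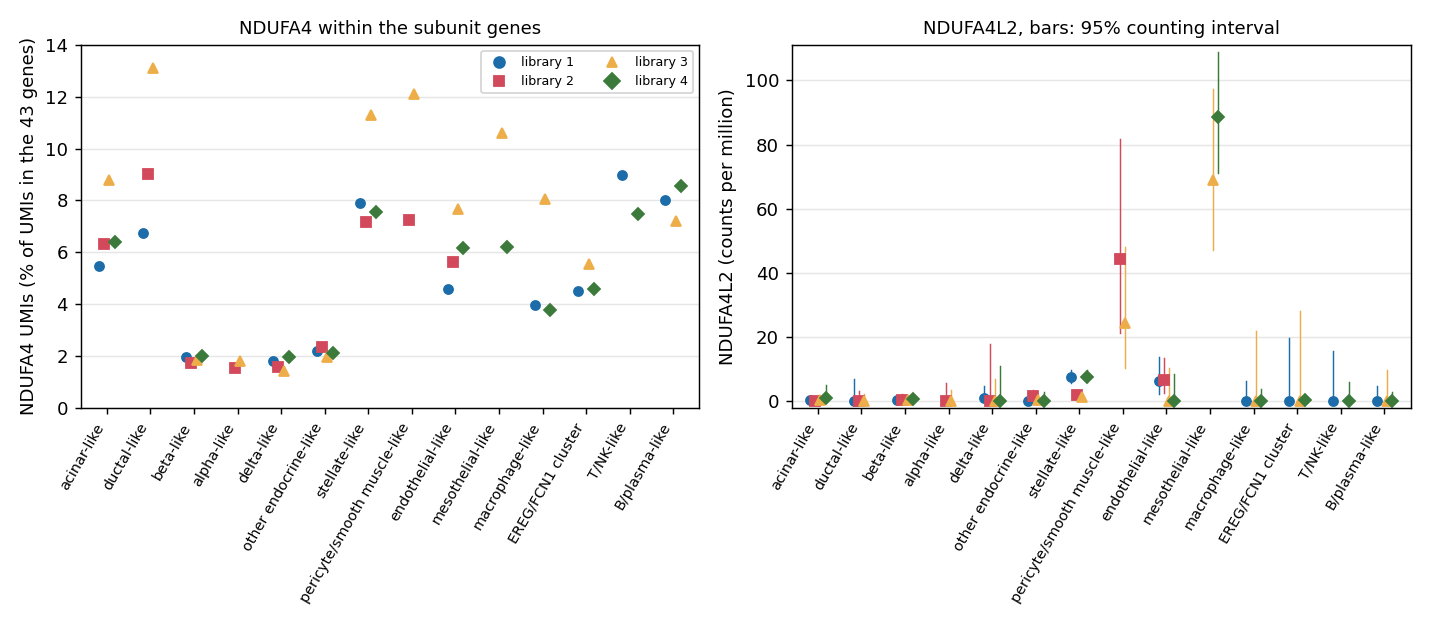
NDUFA4 as a percent of the UMIs of the 43 genes (left) and NDUFA4L2 in CPM with 95% Poisson intervals for counting error (right), 1 point per cell class and library with at least 20 cells. The endocrine-like classes lie at 1.45% to 2.37% on the left, below every other class, and NDUFA4L2 reaches 69 and 88.6 CPM in mesothelial-like cells on the right.

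NDUFA4L2, known as a target of hypoxia-inducible factor and as a gene of mural cells around vessels, was highest in mesothelial-like and pericyte/smooth muscle-like cells, with few counts everywhere. Mesothelial-like cells had 69 CPM in library 3 (32 counts, 47.2 to 97.4 CPM by exact Poisson interval) and 88.6 CPM in library 4 (88 counts, 71 to 109 CPM). Pericyte/smooth muscle-like cells had 44.4 CPM in library 2 (10 counts, 21.3 to 81.7 CPM) and 24.4 CPM in library 3 (8 counts, 10.5 to 48.1 CPM). In library 3, where both were present, the intervals of these 2 classes overlapped slightly.

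Stellate-like cells had 7.47, 1.93, 1.38 and 7.59 CPM of NDUFA4L2 in libraries 1 to 4, higher in libraries 1 and 4 than in libraries 2 and 3. Endothelial-like cells had 6.29 and 6.49 CPM in libraries 1 and 2, on 6 and 7 counts, and 0 counts in libraries 3 and 4. Ductal-like cells had 0 counts in libraries 1 to 3, which allows up to 5.7, 2.64 and 1.81 CPM (3 counts of the total); the exact Poisson intervals drawn for these zeros end at 7.01, 3.24 and 2.23 CPM. Acinar-like cells had 1 to 4 counts per library, endocrine-like cells 2 to 8, and immune-like cells 0 in libraries 1 to 3 and 1 in library 4. Cell-free barcodes had 3, 3, 1 and 0 counts. The gene was too low to enter the pericyte/smooth muscle-like against stellate-like comparison, where its log2 ratios were 3.95 and 3.42.

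Complex II was a larger part of the subunit RNA in ductal-like and immune-like cells than in hormone cells. Of the UMIs of complexes I and II together, the 4 SDH genes took 9.83%, 10.2% and 9.6% in the ductal-like cells of libraries 1 to 3. In immune-like cells they took 8.59%, 9.49%, 9.1% and 8.91%. Endocrine-like cells had 5.36%, 5.85%, 4.49% and 5.05% in libraries 1 to 4. Neither ductal-like values nor those of the immune-like class as a whole overlapped the endocrine-like ones.

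Acinar-like cells lay between, at 6.84%, 6.68%, 7.98% and 5.71%, the last just below the highest endocrine-like value. Stellate-like cells had a median of 7.88% (6.37% to 8.29%) and endothelial-like cells 6.82% (5.97% to 7.36%). Among immune cells, macrophage-like cells had 10.3%, 7.92% and 10.3% in libraries 1, 3 and 4. A cluster led by EREG and FCN1, described further on, had 9.66%, 9.79% and 9.78%, and B/plasma-like cells had 7.47%, 9.39% and 7.87% in the same libraries. The B/plasma-like cluster is mixed by its markers, with 8 of 10 passed in both the B/plasma and the macrophage list. At Leiden resolution 2 only 134 cells were named B/plasma-like. A cluster of 185 cells with JCHAIN among its leading genes was then named macrophage-like. T/NK-like cells had 7.02% and 4.72% in libraries 1 and 4, and the 4.72% lay within the endocrine-like range. Within the endocrine class the medians were 5.45% in beta-like, 4.92% in alpha-like, 4.9% in delta-like and 4.7% in other endocrine-like cells. Their ranges over libraries overlapped.

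**Figure D4:**
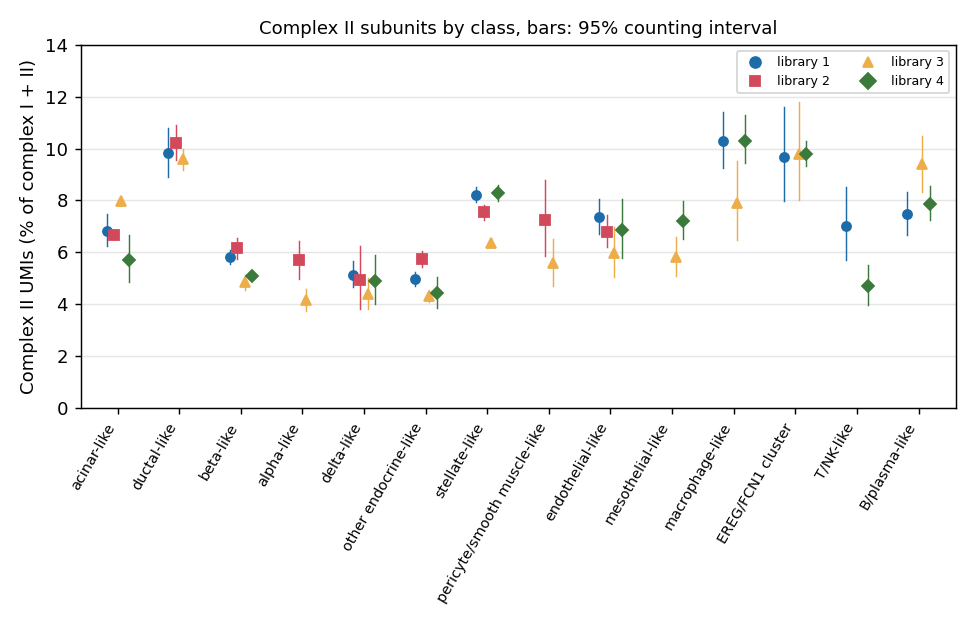
Complex II subunits (SDHA, SDHB, SDHC and SDHD) as a percent of the UMIs of complexes I and II (y axis) by cell class (x axis), 1 point per library with at least 20 cells and 95% exact binomial intervals for counting error as bars. Ductal-like points lie at 9.6% to 10.2%, and the hormone classes lie at 4.15% to 6.15%.

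The SDH genes did not contribute equally to the ductal-like value. SDHD took 2.39%, 3.69% and 2.78% of the 43 genes' UMIs in ductal-like cells, above every library of every other class, which ranged from 0.841% to 2.35%. SDHA measured 127, 115 and 172 CPM in ductal-like cells and 53.1, 68.7, 58.9 and 48.7 CPM in endocrine-like cells. SDHB measured 217, 218 and 332 CPM against 77.5, 119, 118 and 89.2 CPM. For both genes the ductal-like values lay above all endocrine-like ones.

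A few complex I subunits also stood apart in their share of the 43 genes' UMIs, and they are named here after their values were seen. NDUFB8 took 3.43% to 4.28% in endocrine-like cells, against 1.39% to 3.25% elsewhere, and NDUFA6 took 3.02% to 3.61% against 1.51% to 2.77%. In acinar-like cells NDUFA2, a matrix-arm subunit with a thioredoxin-like fold, took 4.26% to 5.85% against 2.38% to 4.17% elsewhere. NDUFA8 took 0.764% to 1.21% in acinar-like cells against 1.58% to 3% elsewhere. At the other end, NDUFA9, NDUFB3, NDUFA11 and NDUFB4 had the most even shares, with the highest class median 1.37, 1.39, 1.4 and 1.42 times the lowest; the same ratio was 4.75 for NDUFA4. Acinar-like cells had 42 of 43 members within 1 log2 unit of the other classes of the same library, and endocrine-like cells 40.

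Beta-like cells, the insulin cells, were compared with the remaining endocrine-like cells in all 4 libraries. Of those 383, 426, 513 and 120 remaining cells in libraries 1 to 4, 285, 321, 317 and 85 had no named subtype. In library 1 these came from a cluster led by MSMB and PPY. Alpha-like cells numbered only 10, 77, 113 and 11. Of 42 members measured, 0 were called higher and 0 lower, and the median log2 ratio was 0.13, against a background of 1.19% higher and 2.08% lower over 9833 genes with a median of 0.04. After centring the members' counts were again 0 and 0, with a background of 1.21% and 2.3%. The ratios of NDUFS1, NDUFV1, SDHA and SDHB were -0.12, 0.21, 0.02 and 0.44, and that of NDUFA4 was -0.06. The libraries differed in direction, for the members and for all genes. The members' median was 0.54 in library 1 and -0.26 in library 3, and the median of all genes was 0.36 and -0.12.

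The other energy genes of beta-like cells were also rarely called. Of 14 glycolysis genes, ENO2 was higher (1.25) and LDHB, the lactate dehydrogenase subunit typical of oxidative tissue, and HK1, a low-Km hexokinase, were lower (-3.69 and -2.18). The counts were 0 in both directions for 17 ATP synthase, 23 assembly, 10 coenzyme Q and cytochrome c, 17 citrate cycle, 12 biogenesis, 77 mitochondrial ribosome, 78 cytosolic ribosome, 11 antioxidant and 9 hypoxia genes.

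Pericyte/smooth muscle-like cells were compared with stellate-like cells in libraries 2 and 3, where 84 such cells were found. The leading genes of their cluster included IL1RL1, ELN and TNC beside ACTA2 and MYH11. With at least 1000 UMIs per cell, a cluster led by IL1RL1 and ELN passed 14 stellate/fibroblast markers and was named stellate-like. The pericyte/smooth muscle-like cluster then passed 13 markers of its own list and 3 of the stellate/fibroblast list. The part of stellate-like cells in the pericyte/smooth muscle-like class used here was not tested, so 0 calls may understate differences. Of 42 members, 0 were called in either direction, while 38 had a median ratio above 0 and the median log2 ratio was 0.35. The background was 0.574% higher and 6.19% lower over 10462 genes, with a median of -0.10; after centring the counts remained 0 and 0 against 0.621% and 5.76%. Library 2 alone, with 31 such cells, gave 3 members higher and 1 lower, the lower one being NDUFS1 (-1.65). The share of all genes called in library 2 alone is not given here, so these counts have no background beside them. NDUFA11 had the highest ratio among measured members (0.95) and NDUFS1 the lowest (-0.89), its 4.44 CPM in library 2 being a single count. NDUFV1, SDHA, SDHB and NDUFA4 had 0.15, -0.14, 0.49 and 0.42. Called among the other lists were ESRRA, a nuclear receptor that drives mitochondrial genes (lower, -3.21), and the hypoxia genes HIF3A and KDM3A (lower, -3.54 and -2.64). The remaining lists gave 0 calls. The pericyte/smooth muscle-like side held only 225146 and 327502 UMIs in libraries 2 and 3, where 3 counts are 13.3 and 9.16 CPM. Lower calls can therefore rest on very few counts on that side. In simulated data, 224 of 10262 unchanged genes were called in this comparison.

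Within the immune class, 1 cluster of 423 cells passed 8 markers of the neutrophil list and 5 of the macrophage list. Its leading genes included EREG, FCN1, AREG and CSF3, which are not on the neutrophil list, beside S100A8, which is, so it is called here the EREG/FCN1 cluster and given no cell type. A smaller cluster of 65 cells led by CXCR1, TARM1, PGLYRP1 and CXCR2 was left unnamed and entered no class. The EREG/FCN1 cluster was compared with macrophage-like cells in libraries 1, 3 and 4. Only 32 members were measured; 0 were called higher and 0 lower, with a median log2 ratio of 0.15, against a background of 3.72% higher and 9.7% lower over 1587 genes with a median of -0.04. Centring left 0 and 0 against 4.03% and 9.14%. Without library 3, NDUFA13 was called lower (ratios of -1.53 and -1.35 in libraries 1 and 4); this accessory subunit is also known as GRIM-19. SDHA, SDHB, NDUFV1 and NDUFA4 had ratios of 0.00, 0.31, -0.14 and 0.23, and NDUFS1 was not measured. The share of all UMIs in the 43 genes had medians of 0.602% in the EREG/FCN1 cluster and 0.582% in macrophage-like cells, with overlapping ranges.

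In the same cells 4 of 11 glycolysis genes were called higher, among them HK3, the hexokinase of myeloid cells (2.36), PKM (2.05) and ENO1 (1.18). NDRG1, a hypoxia target, was higher (1.40), CAT, the peroxide-degrading catalase, was lower (-1.36), and RPS12 was the only one of 75 measured cytosolic ribosome genes called (1.20). Of 17 ATP synthase, 5 citrate cycle and 11 mitochondrial ribosome genes, 0 were called in either direction.

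Back in the wider comparison of endocrine-like cells with ductal-like, stromal, vascular, mesothelial and immune cells, the other lists gave further calls. Glycolysis had 3 of 16 genes higher, with ENO2 at 3.12, and 6 lower, led by HK1 (-3.98) and PFKP (-3.25). Hypoxia targets had 1 of 14 higher and 6 lower, led by ADM (-4.29). Of the antioxidant list, PRDX5, a mitochondrial peroxiredoxin, was higher (1.64) and GPX1, a glutathione peroxidase, was lower (-3.07). PPARGC1A and PPARGC1B, coactivators of mitochondrial biogenesis, were called in opposite directions (-2.27 and 1.27). ATP5E, the epsilon subunit of ATP synthase, was higher (1.34) and was 1 of 17 called in that list, and COQ8A, a kinase-like protein of coenzyme Q synthesis, was lower (-1.88). The cytosolic ribosome had 9 of 79 lower. Citrate cycle, assembly and mitochondrial ribosome genes gave 0 calls in either direction among 18, 25 and 77.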

How the data were processed

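The authors deposited whole UMI counts per gene and barcode, unfiltered and aggregated over 4 libraries (27179520 barcodes, 247275915 UMIs). The submitters' processing notes name bcl2fastq 5.01, Cell Ranger 3.1.0 and Seurat 3.1.1, while per the file headers the matrix came from Cell Ranger 5.0.1. No build or annotation is named in the sources used here. Depth was 43297855, 82817057, 65937591 and 55223412 UMIs in libraries 1 to 4.

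Barcodes above 1/10 of the 99th percentile of their library's top 8000 barcodes, with at least 500 genes, were called cells (13410). Scrublet in scanpy 1.11.5 removed 77, 2, 111 and 4 doublets, so nearly none in libraries 2 and 4. Counts scaled to 10000 per cell, 2000 variable genes, 30 components and 15 neighbours entered Leiden clustering (igraph 0.11.9) at resolution 1. A class name needed at least 3 listed markers raised 2-fold and seen in 10% of a cluster's cells. The list with the largest share of its markers passed gave the name, and equal shares went by alphabetical order. Where the stellate/fibroblast and pericyte/smooth muscle lists both passed 0.5, the markers among the top 10 genes decided between them. Clusters with over 0.5 of another lineage's markers or led by at least 3 cycling genes stayed unnamed (379 cells). For that rule the immune lists were taken as the same lineage, as were those mesenchymal lists. These thresholds were set after seeing the data. Members, markers and lists were chosen with earlier results of these data known.

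UMIs were summed per class and library of at least 20 cells, and log2 ratios of CPM with a pseudocount of 1 were taken within libraries; the scale understates differences of low genes. A gene was measured with at least 20 counts on one side in every entering library. Levels of different genes were not compared, because 3' counts are not per length. Named are called members, up to 20 per comparison, the NDUFA4 pair, NDUFS1, NDUFV1, SDHA and SDHB, and up to 3 called genes per list; other members were chosen after their values were seen, and 1 member enters counts and sums but is not reported singly here. The call was tested on simulated data, where it recovered only part of the smaller changes and, in the comparison with only libraries 2 and 3, called some unchanged genes. Scripts ran in Python 3.11.15 with numpy 2.4.6, scipy 1.17.1 and pandas 2.3.3.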

Additional observations from a re-analysis of the deposited data

Results flagged for a closer look

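Barcodes of 10 to 100 UMIs, which entered no cell class and no log2 ratio, also carried the subunit genes. Above, they were taken as cell-free RNA and set beside the classes for NDUFA4 and NDUFA4L2. Their share of UMIs in the 43 genes was 0.274%, 0.344%, 0.407% and 0.128% in libraries 1 to 4. They are listed because counts were found outside the called cells, which says nothing of their source. In the cells of the same libraries the share was 0.503%, 0.371%, 0.623% and 0.475%. The leading gene of these barcodes took 15.6%, 12.3%, 23.8% and 70.4% of their UMIs, and the shares without it were 0.325%, 0.392%, 0.534% and 0.432%, against 0.504%, 0.454%, 0.627% and 0.484% in cells with the same gene left out. The part of cell-free RNA in the class values was not tested.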

How the results depend on the processing

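No paired analysis was possible because no library can be tied to a sample, so the labels' replicate numbers could not be used; ratios between classes were taken within each library. Scaling moved the results most. With ratios centred on the median of all genes, the acinar-like against ductal-like median turned to 0.14 with 0 members lower, and NDUFA11 (0.15), SDHA (0.03), NDUFA12 (0.44), NDUFB3 (0.10), NDUFS6 (0.28), SDHB (0.00), NDUFC2 (0.22) and SDHC (0.05) of the 20 called members followed singly, changed sign or reached 0; in all, 28 of 42 members lay above 0; the endocrine-like against exocrine median turned to -0.11, with 0 higher and 1 lower; the added comparison gave a median of 0.35 and 4 higher. With the 10 leading genes left out, these 3 comparisons gave medians of -0.60, 0.60 and 0.63, with 2 lower, 5 higher, and 6 higher and 0 lower, and the shares of acinar-like and endocrine-like cells were 0.58% and 1.01%. In the added comparison, a pseudocount of 10 gave 0 higher, and 1000 UMIs per cell, or leaving out the 5% highest doublet scores, gave 2 lower, the range when leaving out each library being 1 to 2 lower (2 without library 2). Pericyte/smooth muscle-like cells had 1 member higher with no minimum count, and 0 to 3 higher and 0 to 1 lower when a library was left out (3 and 1 without library 3). The EREG/FCN1 cluster had 0 to 1 lower (1 without library 3). For counts with a library left out, the share of all genes called is not given here. The cause of these changes in the counts was not tested. Leiden resolution 2 and leaving out cells with enzyme UMIs moved no count of calls by over 1.5 times. Members with few counts, above all NDUFA4L2 and NDUFS1, are limited by depth, and differences in single genes can go uncalled, small ones most often.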
